A study of Homo sapiens with 6 samples.

Results

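BAF complexes are chromatin remodelers that use ATP to slide or evict nucleosomes, and their subunits come from families of close relatives of which a complex takes 1 member at a time. The 10 genes described here are among the subunits that exchange during neural development. They include the ATPases SMARCA2 (BRM) and SMARCA4 (BRG1), the scaffold proteins SMARCC1 and SMARCC2, and the actin-related proteins ACTL6A and ACTL6B. The others are SMARCD1, SMARCD2 and SMARCD3, which link the complex to transcription factors, and PHF10, which carries PHD fingers. Further subunits that exchange are not among the 10. The 10 genes were taken as a list, and every probe with one of these symbols in the probe annotation was used, whatever its signal. Of the 10 genes, 9 were among the 18665 gene symbols with a probe, with 16 probes in all, and 8 genes had at least 1 probe that could be tested, 11 of the 17402 tested probes among 48803 on the array. SMARCD2 had no probe under its symbol in the annotation used here and has no value.

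In mouse, where the exchange was worked out, the embryonic stem cell complex holds SMARCA4, a pair of SMARCC1 proteins and SMARCD1, and has little SMARCA2, SMARCC2 or SMARCD3. Neural progenitors gain SMARCA2 and SMARCC2 and still use ACTL6A and PHF10. When progenitors leave the cell cycle, ACTL6B, DPF1, DPF3 and SS18L1 take the places of ACTL6A, PHF10 and SS18 in the neuronal complex. The comparison made here was whether the messenger RNA of the human counterparts differed between the stages in those directions.

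Neural stem cell (NSC) cultures were set against embryonic stem cell (ESC) cultures of the established human embryonic stem cell lines H1, HSF1 and HSF6, with 1 Illumina Human-6 array for each line and stage, 3 NSC and 3 ESC arrays in all. H1 was kept without feeder cells at Rutgers and had duplications on chromosomes 12 and 17 in a preliminary array test, whereas HSF1 and HSF6 were cultured and differentiated at UCLA, so that line and place of culture cannot be told apart. At Rutgers, ESC were taken through a neural induction medium and then kept as NSC in a precursor medium with bFGF. The p-values measure the spread between lines, and in bulk RNA fewer cells that express a gene and less RNA per cell cannot be told apart.

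Promoters are shown for SMARCD3, which had the largest difference among the tested members, and for ACTL6B. The ACTL6B signal was higher in NSC than in ESC in HSF1 and HSF6 only. Each window is the 250 bases before a transcription start in RefSeq's annotation of GRCh38.p14, on the minus strand of chromosome 7, written 5′ to 3′ with the letters of a motif in capitals: CAGCTG (an E-box), GGGCGG (a GC box), CCAAT and TATAAA, each searched on both strands. Which of the SMARCD3 starts a probe reports is not given in the tables used.
SMARCD3 upstream start, chr7:151277150-151277399: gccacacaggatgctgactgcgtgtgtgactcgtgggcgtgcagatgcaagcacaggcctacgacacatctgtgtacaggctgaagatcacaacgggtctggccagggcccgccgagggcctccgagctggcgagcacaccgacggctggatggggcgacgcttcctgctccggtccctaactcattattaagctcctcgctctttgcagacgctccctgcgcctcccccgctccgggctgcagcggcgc
SMARCD3 downstream start, chr7:151248695-151248944: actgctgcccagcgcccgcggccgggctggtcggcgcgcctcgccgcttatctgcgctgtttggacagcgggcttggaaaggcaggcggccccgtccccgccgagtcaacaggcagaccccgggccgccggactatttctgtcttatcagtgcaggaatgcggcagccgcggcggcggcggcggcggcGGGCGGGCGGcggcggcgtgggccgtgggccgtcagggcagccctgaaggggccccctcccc
ACTL6B, chr7:100656449-100656698: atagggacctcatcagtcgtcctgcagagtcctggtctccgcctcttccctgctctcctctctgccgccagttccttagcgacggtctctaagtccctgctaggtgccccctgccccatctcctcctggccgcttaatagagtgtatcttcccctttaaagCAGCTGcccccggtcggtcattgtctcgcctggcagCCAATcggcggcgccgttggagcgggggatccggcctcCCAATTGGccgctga
RefSeq gives a further SMARCD3 start between these, whose window (chr7:151276735-151276984, GC content 67.2%) holds none of the 4 motifs and is not printed. The upstream SMARCD3 window also held none, and the downstream one held 2 overlapping GC boxes at a GC content of 76.0%. The ACTL6B window held 1 E-box, which reads the same on both strands, and 3 CCAAT matches, of which 2 overlap on opposite strands in CCAATTGG. Of all 35116 windows in the table, 14.0% held an E-box, 42.6% a GC box, 32.0% a CCAAT and 10.7% a TATAAA, and the median GC content was 58.0%. Windows were found for 7 of the 10 members.

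The deposited signals had been brought to one distribution on all arrays and still held the background, a peak at 127 with an SD of 11.2. A signal above 145 counted as above background, and a probe was tested if all 3 arrays of a stage passed this limit. Differences are NSC minus ESC on a log2 scale of background-corrected signal, tested with limma, and a probe was called at an adjusted p under 0.05 over all tested probes and at least a 1.5-fold difference. The cell markers bear on what the NSC cultures held. The summed background-corrected signal of 7 pluripotency genes was between 871 and 7239 in NSC, against 36957 to 48025 in ESC. SOX2 was the brightest of them in NSC, with signals of 790 (H1), 6223 (HSF1) and 6337 (HSF6). POU5F1, NANOG and ZFP42 were under the limit in every NSC culture. DNMT3B and DPPA4 were above it in each, and LIN28A in HSF1 NSC and HSF6 NSC. The sum of 10 neural progenitor genes was 6333 (H1), 22123 (HSF1) and 16691 (HSF6) in NSC, against 6111 to 7295 in ESC. H1 NSC thus lay within the ESC range, but PROM1 was the brightest of these genes in ESC. Its signals were 5126 (H1), 5542 (HSF1) and 3710 (HSF6) in ESC and 861 in H1 NSC. In H1, SOX9, NOTCH1, SLC1A3 and FABP7 were higher in NSC, and PROM1, NES and MSI1 were lower. PAX6, HES5 and SOX1 were under the limit in both H1 cultures. In H1 NSC, 6 of these 10 genes were above the limit, and MSI1 (signal 142), PAX6 (signal 138), HES5 (signal 135) and SOX1 (signal 119) were not. SOX1 was under the limit on every array. The sum of 8 neuron genes was 3418 (H1), 17898 (HSF1) and 21043 (HSF6) in NSC, against 2405 to 2742 in ESC. That of 8 fibroblast genes, all of them above the limit in every NSC culture, was 146948 (H1), 33190 (HSF1) and 56209 (HSF6) in NSC, against 1074 to 3744 in ESC. The sum of 6 muscle genes was between 9663 and 18549 in NSC, against 4564 to 14933 in ESC. The NSC samples are therefore called by their label.

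Of the 11 tested member probes, 4 were called: 1 of SMARCC2 and 2 of SMARCD3 were higher in NSC, and that of PHF10 was higher in ESC. That is 36.4% of them, beside 22.2% of all tested probes. Higher in NSC were 27.3% of the member probes, beside 10.3% of all probes, and higher in ESC were 9.09%, beside 11.8%. The member shares count ILMN_2408987 of SMARCD3, which was tested only through the NSC cultures, in which it is high. All 4 called probes moved the same way in the 3 lines. That share was not computed over all called probes, so it adds no support to the calls. The signals of NSC and ESC did not overlap for 5 of the 11 probes, or 45.5%, beside 44.5% of all tested probes. The median difference of the member probes was 0.048, beside a median of -0.095 and quartiles of -0.64 and 0.56 over all tested probes. Counted by gene, with the brightest tested probe standing for each, 2 of the 8 members were higher in NSC, 1 was higher in ESC and 5 were not called. The share called in this way was not computed over all genes, so the counts by gene have no such background.

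**Figure D1:**
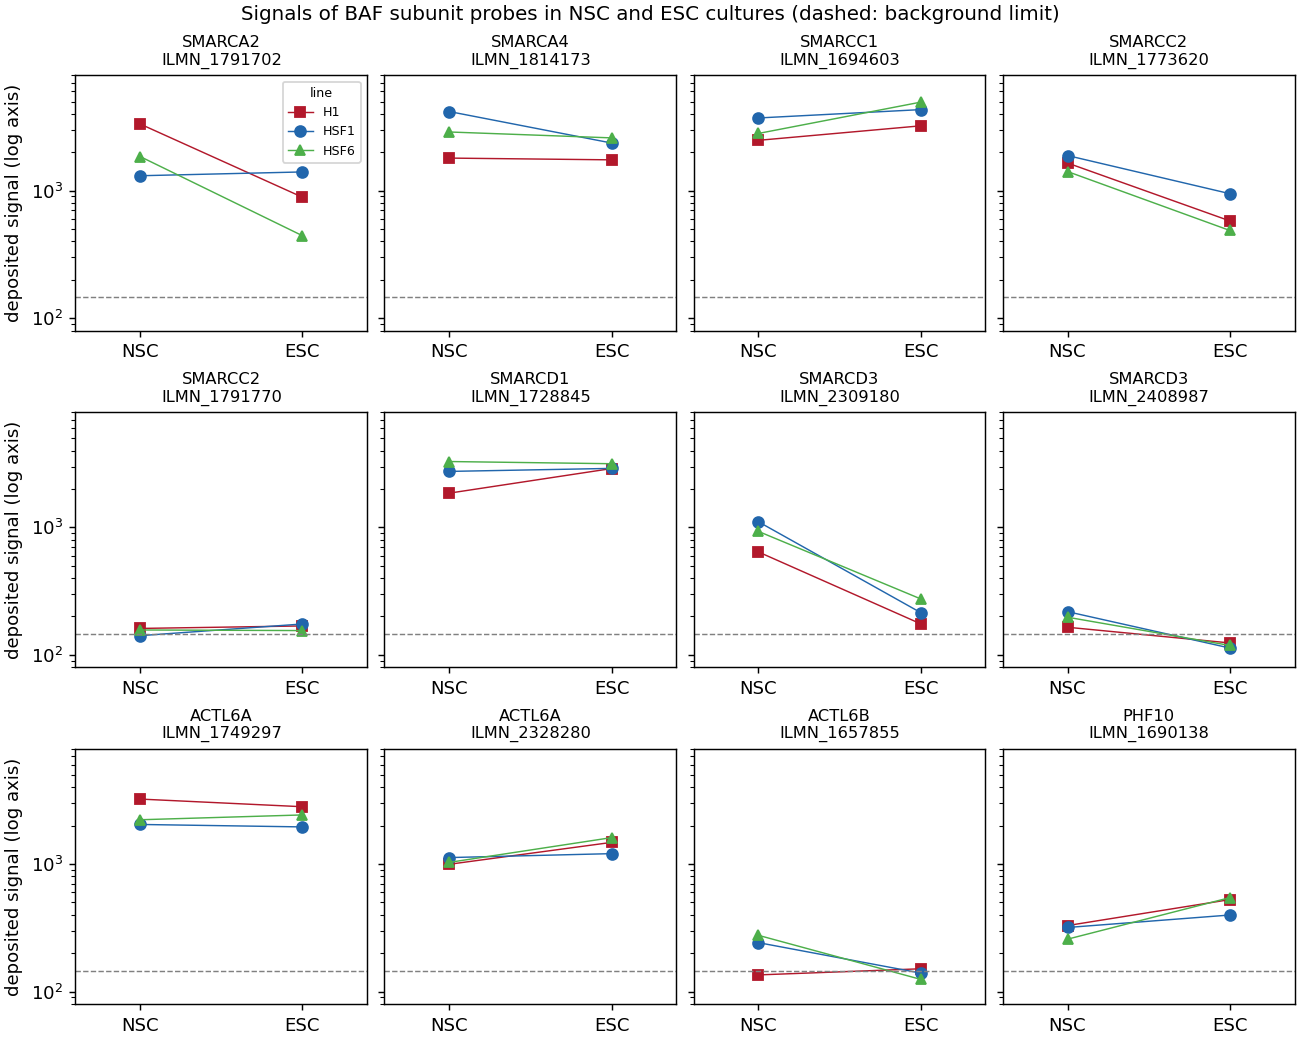
Deposited signal (log axis) of the 11 tested member probes and of the ACTL6B probe in NSC and ESC cultures, with a line joining the cultures of each cell line and the background limit of 145 dashed. Both SMARCD3 probes and the brightest SMARCC2 probe lie higher in NSC in all 3 lines, and ACTL6B crosses the limit in HSF1 NSC (242) and HSF6 NSC (276) but not in H1 NSC (135).

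The ATPases drive the remodeling. SMARCA4, the ATPase of the embryonic complex, had signals of 1800 (H1), 4170 (HSF1) and 2884 (HSF6) in NSC, against 1744 (H1), 2363 (HSF1) and 2593 (HSF6) in ESC. The NSC culture was the higher one in each line, but by little in H1, and the ranges overlapped. The difference was 0.35 (standard error 0.37, adjusted p = 0.514 from limma), and it was not called.

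SMARCA2, the other ATPase, gave signals of 3328 (H1), 1309 (HSF1) and 1849 (HSF6) in NSC, against 888 (H1), 1402 (HSF1) and 443 (HSF6) in ESC. It was 4.14-fold higher in NSC in H1 and 5.24-fold in HSF6, whereas in HSF1 the NSC signal was 0.928 of that in ESC. The mean difference of 1.44 (standard error 0.56) was not called (adjusted p = 0.105 from limma), and none of the alternatives in processing or left-out cultures brought a call (adjusted p between 0.0783 and 0.384). The NSC cultures had the same order in SMARCA2 as in the fibroblast sum, with H1 highest (146948) and HSF1 lowest (33190). In ESC the order was not shared, as SMARCA2 was highest in HSF1 and lowest in HSF6 and the fibroblast sum was lowest in HSF1 (1074) and highest in HSF6 (3744). Within HSF1 the fibroblast sum was higher in NSC, and SMARCA2 was not. The part of such cells in the SMARCA2 signal was not tested. A further SMARCA2 probe passed the limit on 1 array, HSF1 NSC with 149, and had signals between 127 and 138 on the other arrays.

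The SMARCC proteins form the paired core onto which the complex is built. SMARCC1 had signals of 2481 (H1), 3715 (HSF1) and 2809 (HSF6) in NSC, against 3222 (H1), 4319 (HSF1) and 4942 (HSF6) in ESC. The NSC culture was the lower one in all 3 lines, at 0.762 of the ESC level in H1, 0.856 in HSF1 and 0.558 in HSF6 after background correction. HSF1 NSC was nonetheless above H1 ESC, and the difference of -0.49 (standard error 0.29, adjusted p = 0.256 from limma) was not called.

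SMARCC2 rose in NSC on its brightest probe, ILMN_1773620, with signals of 1647 (H1), 1885 (HSF1) and 1412 (HSF6) in NSC, against 579 (H1), 947 (HSF1) and 487 (HSF6) in ESC. Every NSC culture was above every ESC culture, by 3.28-fold in H1, 2.12-fold in HSF1 and 3.46-fold in HSF6. The log2 level was 10.57 ± 0.22 in NSC and 9.04 ± 0.60 in ESC (SD, n = 3 each), a difference of 1.53 (standard error 0.35, adjusted p = 0.0219 from limma). The gene lies on chromosome 12, where H1 carried a duplication whose position is not given in the sources used here, and the difference without both H1 cultures was 1.44 (adjusted p = 0.0655). The call was also lost when all probes were tested without the limit (adjusted p = 0.0536) and without HSF1 NSC (adjusted p = 0.0700), HSF6 NSC (0.0579), H1 ESC (0.0641) or HSF6 ESC (0.0639) and was kept without H1 NSC (0.0335) or HSF1 ESC (0.0215).

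The other SMARCC2 probes gave no rise. ILMN_1791770 had signals of 161 (H1), 141 (HSF1) and 157 (HSF6) in NSC, against 169 (H1), 175 (HSF1) and 155 (HSF6) in ESC, all close to the limit. Its difference was -0.37 (standard error 0.28, adjusted p = 0.367 from limma), opposite in sign to that of the bright probe. Both probes are annotated to the same SMARCC2 transcript, and why they differ was not tested. ILMN_2251047 was below the limit on every array, with signals between 113 and 143.

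The SMARCD proteins are the part of the complex that transcription factors contact, and SMARCD3 is the member known from heart and muscle development in mouse. SMARCD3 had the largest difference of the tested member probes on ILMN_2309180, with signals of 641 (H1), 1106 (HSF1) and 929 (HSF6) in NSC, against 175 (H1), 215 (HSF1) and 275 (HSF6) in ESC. All 6 arrays were above the limit, and the lowest NSC culture was well above the highest ESC culture. After background correction NSC was 8.30-fold higher in H1, 9.63-fold in HSF1 and 5.0-fold in HSF6. The log2 level was 9.56 ± 0.46 in NSC and 6.68 ± 0.68 in ESC (SD, n = 3 each), a difference of 2.88 (standard error 0.41, adjusted p = 0.0053 from limma).

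A second SMARCD3 probe, ILMN_2408987, was called in the same direction. Its signals were 165 (H1), 218 (HSF1) and 197 (HSF6) in NSC, against 124 (H1), 113 (HSF1) and 119 (HSF6) in ESC. The ESC cultures were thus all under the limit, which gives at least a 2.24-fold higher level in NSC. The limma test was on the difference of 1.81, which uses the ESC signals under the limit (adjusted p = 0.0093). This probe was tested only because it passed the limit in the NSC cultures, in which it is high, so its call is weaker support than that of ILMN_2309180. The third probe, ILMN_1693244, was under the limit on every array, with signals between 108 and 129. These probes are annotated to 3 different SMARCD3 transcripts. No single culture left out ended either call, but with both HSF1 cultures left out neither was called (differences of 2.69 and 1.55, adjusted p = 0.0832 and 0.102), nor was ILMN_2408987 without both HSF6 cultures (1.74, adjusted p = 0.114). Without background correction the differences were 2.0 for ILMN_2309180 and 0.70 for ILMN_2408987, and with an offset of 50 they were 2.51 and 1.01, all still called.

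Muscle markers were set beside SMARCD3, and their part in its signal was not tested. The sum of the 6 muscle genes was 10603 (H1), 9663 (HSF1) and 18549 (HSF6) in NSC, against 4564 (H1), 7010 (HSF1) and 14933 (HSF6) in ESC, and so was higher in NSC in each line while the stages overlapped. Of the 4 tested muscle genes, ACTA2, smooth muscle actin, was higher in NSC by 3.63 (adjusted p = 0.0074 from limma), CNN1, calponin, was higher in ESC, and TAGLN and MYL7 were not called. In each NSC culture 2 of the 6 were above the limit, against 4 or 5 in the ESC cultures.

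SMARCD1, the SMARCD protein of the embryonic complex, had signals of 1855 (H1), 2747 (HSF1) and 3283 (HSF6) in NSC, against 2892 (H1), 2900 (HSF1) and 3156 (HSF6) in ESC. The ESC cultures were close together, and only H1 NSC stood apart, at 0.627 of its ESC level. The difference was -0.23 (standard error 0.29, adjusted p = 0.584 from limma) with H1 NSC and 0.011 without it, not called in either case. SMARCD1 also lies on chromosome 12, where H1 carried a duplication whose position is not given in the sources used here. Without both H1 cultures the difference was -0.011. A further SMARCD1 probe was under the limit on every array.

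**Figure D2:**
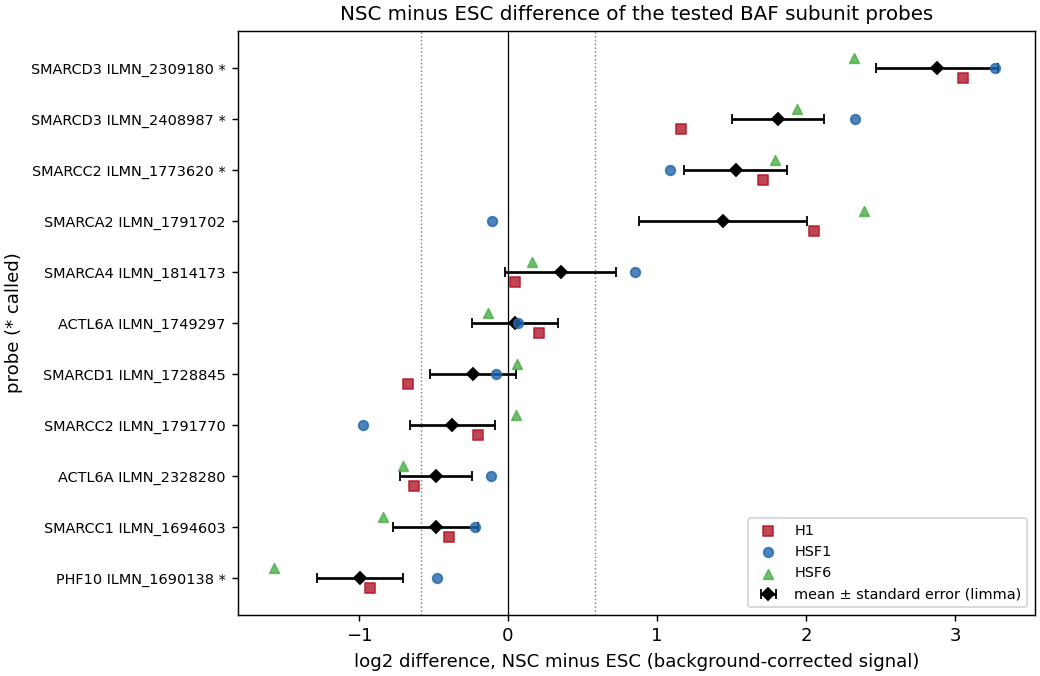
Log2 difference NSC minus ESC of the 11 tested member probes, with the mean and its limma standard error in black, the difference within each line as a coloured symbol, and dotted lines at a 1.5-fold difference. Both SMARCD3 probes (2.88 and 1.81) and 1 SMARCC2 probe (1.53) were called higher in NSC and PHF10 (-0.99) was called higher in ESC, while the HSF1 point of SMARCA2 lies apart from those of H1 and HSF6.

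The actin-related subunits are ACTL6A in dividing cells and ACTL6B in neurons. ACTL6A had no called probe. On ILMN_1749297 its signals were 3234 (H1), 2045 (HSF1) and 2227 (HSF6) in NSC, against 2817 (H1), 1957 (HSF1) and 2429 (HSF6) in ESC, with a difference of 0.048 (standard error 0.29, adjusted p = 0.921 from limma). The lines differed more from each other than the stages did. On ILMN_2328280, annotated to another transcript, the signals were 997 (H1), 1125 (HSF1) and 1031 (HSF6) in NSC, against 1479 (H1), 1207 (HSF1) and 1612 (HSF6) in ESC. Here the stages did not overlap, but the difference of -0.48 (standard error 0.24) missed the threshold (adjusted p = 0.186 from limma).

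ACTL6B, the neuronal relative, had signals of 135 (H1), 242 (HSF1) and 276 (HSF6) in NSC, against 151 (H1), 140 (HSF1) and 125 (HSF6) in ESC. It passed the limit clearly in HSF1 NSC and HSF6 NSC, by little in H1 ESC, and on no other array, so it was not tested. HSF1 ESC and HSF6 ESC lay under the limit and H1 NSC did too, so the difference within a line has no reliable size. Only HSF1 and HSF6 had the higher signal in NSC. The mean difference was 1.45, with an adjusted p of 0.364 from limma when all probes were tested without the limit, and it was 0.59 without background correction. With single cultures left out the difference lay between 0.97 (without HSF6 NSC) and 2.24 (without H1 NSC), and with both cultures of a line left out between 0.79 (HSF6) and 2.42 (H1). Without H1 NSC the probe passes the limit only through the NSC cultures in which it is high, so no test is taken from that setting. The neuron marker sum was 3418 (H1), 17898 (HSF1) and 21043 (HSF6) in NSC, against 2742 (H1), 2405 (HSF1) and 2630 (HSF6) in ESC. It was thus lowest in H1 among the NSC cultures, as ACTL6B was, but in H1 it was higher in NSC while the ACTL6B signal was lower. In H1 NSC, 7 of the 8 neuron genes were above the limit and in HSF1 and HSF6 NSC all 8, against 6 (H1), 7 (HSF1) and 5 (HSF6) in ESC. Within H1, STMN2, SNAP25, DCX and MAP2 were higher in NSC, and TUBB3, SYT1, ELAVL3 and ELAVL4 were lower. The part of neurons in the ACTL6B signal was not tested.

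PHF10, a PHD finger subunit of the embryonic and progenitor complexes, had signals of 329 (H1), 318 (HSF1) and 258 (HSF6) in NSC, against 526 (H1), 398 (HSF1) and 545 (HSF6) in ESC. All NSC cultures were below all ESC cultures, at 0.525 of the ESC level in H1, 0.720 in HSF1 and 0.337 in HSF6. The log2 level was 7.55 ± 0.31 in NSC and 8.54 ± 0.33 in ESC (SD, n = 3 each), and PHF10 fell by 0.99 (standard error 0.29, adjusted p = 0.0476 from limma). This call lay at the edge of the threshold: it was lost with the cell line as a block (adjusted p = 0.0675) and was kept in 4 of 15 alternatives, with adjusted p between 0.0427 and 0.340. Of the cultures left out one at a time, only leaving out H1 NSC kept it (adjusted p = 0.0442); without HSF1 NSC, HSF6 NSC, H1 ESC, HSF1 ESC or HSF6 ESC it was between 0.0563 and 0.158.

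An exchange of subunits would show as a change in the ratio of the relatives, which was computed on each array for the brightest tested probe of each gene. The ratio across probes has no meaning as a level, so only its change is given, for the 3 pairs that could be computed. The SMARCD3 to SMARCD1 ratio was higher in NSC by 3.73 in H1, 3.35 in HSF1 and 2.26 in HSF6 on the log2 scale, a mean change of 3.11. The SMARCC2 to SMARCC1 ratio was higher by 2.11 in H1, 1.31 in HSF1 and 2.63 in HSF6, with a mean of 2.02. With the mean of both tested SMARCC2 probes, that change was 1.06, and without background correction the SMARCD3 to SMARCD1 change was 2.22. For both pairs the exact two-sided permutation test gave p = 0.1, the smallest that 3 against 3 arrays allow, and 0.15 after adjustment over the 3 pairs. The SMARCA2 to SMARCA4 ratio was higher by 2.0 in H1 and 2.23 in HSF6 but lower in HSF1 (-0.96), with a mean of 1.09 and p = 0.4 in the exact test. It was 0.38 without H1 NSC, 0.44 without HSF6 ESC and 2.12 without both HSF1 cultures. The ratios of ACTL6B to ACTL6A and of SMARCD2 to SMARCD1 were not computed, since ACTL6B was not tested and SMARCD2 had no probe.

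**Figure D3:**
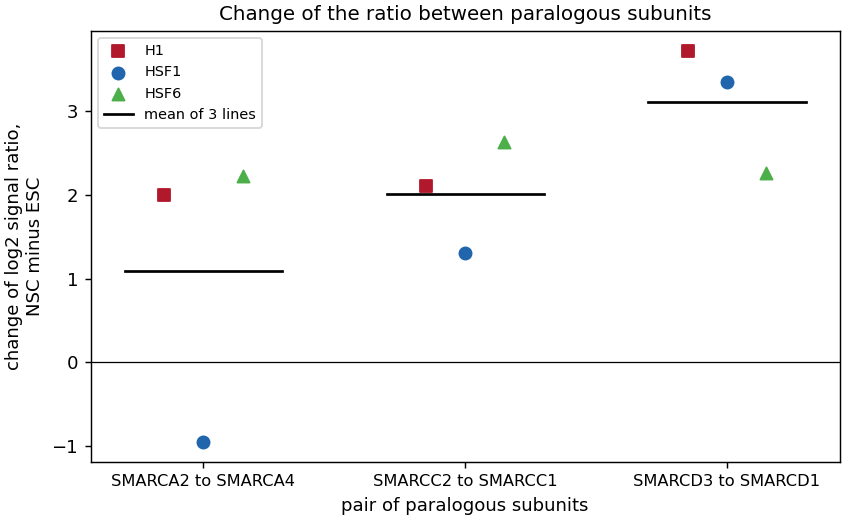
Change of the log2 signal ratio between related subunits, NSC minus ESC, for each line (symbols) and as the mean of the 3 lines (bar). The SMARCD3 to SMARCD1 and SMARCC2 to SMARCC1 ratios were higher in NSC in every line, whereas the SMARCA2 to SMARCA4 ratio was higher in H1 and HSF6 and lower in HSF1 (-0.96).

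The effect of stage was compared between H1 and the HSF lines for every tested probe. H1 has a single array per stage, so this test takes the spread between the HSF lines as that of H1 too. Of the member probes 0 passed this limma test, beside 45 of all 17402 probes (0.259%), and 0 had an unadjusted p under 0.05, beside 2755 of all. The lowest adjusted p of a member was 0.360. The SMARCA2 difference between H1 and HSF was 0.91 and that of ILMN_2408987 of SMARCD3 was -0.97. ACTL6B, whose H1 difference had the other sign on signals close to the limit, was not part of this test.

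The remaining subunits of BAF and of its PBAF and non-canonical forms are a list of 21 genes with 41 probes. Of the 15 genes with a tested probe, 1 was called higher in NSC, 0 were called higher in ESC and 14 were not called, and the median difference of the genes was -0.022. By probe, 1 of 25 was called higher in NSC and 0 higher in ESC, beside 10.3% and 11.8% of all tested probes. At an unadjusted p under 0.05 from limma, 3 of the 25 tested probes were higher in NSC and 1 was lower, and the methods' t-test also called 0 higher in ESC. SMARCE1, a DNA-binding core subunit with an HMG domain, had signals of 1496 (H1), 1894 (HSF1) and 1487 (HSF6) in NSC, against 672 (H1), 903 (HSF1) and 988 (HSF6) in ESC. All NSC cultures were above all ESC cultures, by 2.47-fold in H1, 2.25-fold in HSF1 and 1.57-fold in HSF6, with a difference of 1.04 (standard error 0.27, adjusted p = 0.035 from limma). SMARCE1 lies on chromosome 17, where H1 carried a duplication, and without both H1 cultures the difference was 0.91 and not called (adjusted p = 0.0554). With single cultures left out it lay between 0.85 and 1.17, with the call kept only when H1 NSC was the one dropped (adjusted p = 0.0408, against 0.0557 to 0.110 for the other cultures). These values of SMARCE1 were added after the data were seen. The difference in frequency between the members and this list was not tested.

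The subunits particular to the neuronal complex were mostly at or near background. SS18L1, a calcium-responsive co-activator that replaces SS18 in neurons, was below the limit on every array, with signals between 98.7 and 120. DPF1 and DPF3, the relatives of PHF10 in neurons, and SS18 were picked out after their values were seen. DPF3 had signals of 140 (H1), 204 (HSF1) and 461 (HSF6) in NSC, against 128 (H1), 127 (HSF1) and 123 (HSF6) in ESC. It passed the limit in HSF1 NSC and HSF6 NSC only, the NSC cultures in which ACTL6B also passed it, and was not tested because H1 NSC lay below the limit. DPF1 had signals of 127 (H1), 145 (HSF1) and 158 (HSF6) in NSC, against 118 to 132 in ESC, and passed the limit in HSF6 NSC alone. Of 4 tested SS18 probes none was called, with differences between -1.03 (adjusted p = 0.0536) and 0.064.

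**Figure D4:**
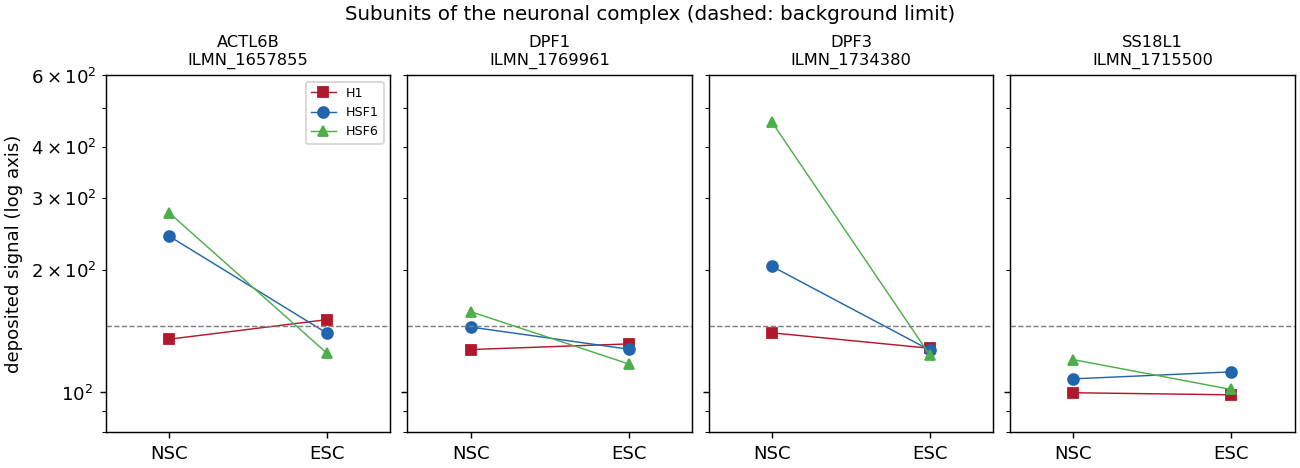
Deposited signal (log axis) of the probes of ACTL6B, DPF1, DPF3 and SS18L1 in NSC and ESC cultures of each line, with the background limit dashed. ACTL6B and DPF3 are above the limit of 145 in HSF1 NSC and HSF6 NSC and below it in H1 NSC, and SS18L1 is below it everywhere.

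Among 18 genes of other remodelers and of complexes that share ACTL6A, 16 had a tested probe. By the brightest tested probe 1 was higher in NSC, 1 was higher in ESC and 14 were not called. Of their 22 tested probes, 1 was higher in NSC and 3 were higher in ESC, beside 10.3% and 11.8% of all tested probes. CHD9, a CHD family ATPase, had signals of 5025 (H1), 2503 (HSF1) and 2963 (HSF6) in NSC, against 684 (H1), 1290 (HSF1) and 1034 (HSF6) in ESC, with a difference of 1.92 (standard error 0.39, adjusted p = 0.0154 from limma). RUVBL2, an AAA ATPase of the INO80 and TIP60 complexes, in which ACTL6A also sits, fell by 0.96 (adjusted p = 0.0268). RUVBL1, its partner, fell by 1.33 on ILMN_1656540 (adjusted p = 0.0083), while its brighter probe had -0.78 and was not called (adjusted p = 0.0886). HELLS, a remodeler tied to DNA methylation, fell by 1.67 on ILMN_1783610 (adjusted p = 0.0321) and its brighter probe had -1.75 without a call (adjusted p = 0.0644). On their tested probes each of these genes moved the same way in all 3 lines.

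REST, a repressor of neuronal genes outside neurons, had signals of 201 (H1), 178 (HSF1) and 168 (HSF6) in NSC, against 213 (H1), 171 (HSF1) and 196 (HSF6) in ESC. The ranges overlapped, and the difference of -0.20 was not called (adjusted p = 0.658 from limma). The probe of RCOR1, its corepressor, was not tested.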

How the data were processed

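Messenger RNA of 6 cultures was measured on Illumina Human-6 arrays, and the sample labels gave line and stage. The deposited values are intensity per probe, which the authors summarised in BeadStudio (no version given in the sources used here); the normalization is not named, but the sorted columns differ by at most 0.442% and so had been quantile normalized, with no background subtracted. A table with 24 columns of per-array values, whose names could not be matched to samples, was not used. The analysis used limma 3.58.1 and the data.table package (version 1.17.8) in R 4.3.3. Background was taken as a normal peak centred on the mode of all signals under 300 (127), with the SD of its lower flank (11.2). Signals were corrected with the normexp model, an offset of 16 was added and log2 taken. The limit of 145 is the mean plus 1.64 SD. Precision is limited by the few arrays and by how far a signal exceeds background, since there is no count depth.

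Stages were compared with lmFit and eBayes without covariates, 3 arrays against 3, and p-values were adjusted by Benjamini-Hochberg over all 17402 tested probes. Where all arrays of the lower stage were under the limit, the fold is a bound against the limit. Marker sums add the corrected signal of 1 probe per gene. Of 48803 probes, 27578 carried 1 gene symbol, 13 several and 21212 none. Probes map to genes through the platform annotation, and only promoters carry coordinates. Both stages of a line share its label, so they are paired: deviations from the stage means correlated between them at 0.17 (H1), 0.22 (HSF1) and 0.10 (HSF6). Alternatives were no background correction, an offset of 50, no limit, a limit of 3 SD, the methods' t-test, the line as a block, and leaving out cultures or lines. The scripts were checked on simulated data. Named genes are all member probes, called or wholly undetected genes among the other subunits, the 4 called remodelers with the largest change, and REST and RCOR1; DPF1, DPF3, SS18 and the marker genes named were chosen after their values were seen. Members and lists were chosen with earlier results of these data known.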

Additional observations from a re-analysis of the deposited data

Results flagged for a closer look

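ACTL6B, the neuronal actin-related subunit, had a difference NSC minus ESC of -0.50 on the log2 scale in H1, against 2.07 in HSF1 and 2.78 in HSF6. The sign in H1 was thus opposite to that in both HSF lines. This difference between H1 and the HSF lines was not tested, since the probe did not pass the limit on all 3 arrays of a stage. The sizes, and in H1 also the direction, rest on signals near or under the limit of 145. They were 135 (H1), 242 (HSF1) and 276 (HSF6) in NSC, against 151 (H1), 140 (HSF1) and 125 (HSF6) in ESC.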

How the results depend on the processing

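The SMARCC2 difference (ILMN_1773620) kept its direction in every setting run but lost its call without the limit (1.53, adjusted p = 0.0536 from limma), with the methods' t-test (1.53, adjusted p = 0.0797), and without both cultures of H1 (1.44), HSF1 (1.75) or HSF6 (1.4). With single cultures left out it lay between 1.29 and 1.86. The SMARCD3 calls were lost without both HSF1 cultures (2.69 for ILMN_2309180 and 1.55 for ILMN_2408987), and that of ILMN_2408987 also without both HSF6 cultures (1.74). With single cultures left out these probes ranged over 2.54 to 3.22 and 1.59 to 2.09, all called. Background handling moved them more: without background correction they were 2.0 and 0.70 and with an offset of 50 they were 2.51 and 1.01, all called. The PHF10 call was lost without the limit, with the methods' t-test and with the replicate block by line (-0.99 in each), and without both cultures of H1 (-1.02), HSF1 (-1.25) or HSF6 (-0.70), and with single cultures left out the difference lay between -1.18 and -0.81. The block, which pairs the cultures of a line, changed no other member call and gave 1883 probes higher in NSC and 2068 higher in ESC. Differences near 0 turned sign: SMARCD1 ranged over -0.42 to 0.011 and ACTL6A (ILMN_1749297) over -0.16 to 0.18 with single cultures left out, and ACTL6A was -0.032 without both H1 cultures.

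Member probes higher in NSC were 3, but 0 without both HSF1 cultures, 1 without both HSF6 cultures and 2 to 4 with single cultures left out. The 4 came without H1 NSC and counts ACTL6B, which passes the limit there only through the NSC cultures in which it is high. Without both H1 cultures the count was also 3, but with ACTL6B in place of SMARCC2. Member probes higher in ESC were 1, but 0 without the limit, with the methods' t-test, with the replicate block and without both cultures of any line, and 0 to 1 with single cultures left out. Among other BAF genes, 1 probe was higher in NSC, but 0 with the methods' t-test and without both HSF1 or both HSF6 cultures, and 0 to 2 with single cultures left out. In ESC it was 0, but 1 with the stricter limit and without both H1 cultures, and 0 to 1 with single cultures left out. Over all probes, 1798 were higher in NSC, against 1125 without the limit, 608 with the methods' t-test, 175 without both HSF1 cultures, 275 without both HSF6 cultures, and 763 to 2390 with single cultures left out. Higher in ESC were 2062, against 892 with the methods' t-test, 150 without both HSF1 cultures, 255 without both HSF6 cultures, and 768 to 2076 with single cultures left out. The cause of these changes was not tested, except that leaving out cultures leaves fewer samples and dropping the limit adds probes to the adjustment. The ratio changes kept their direction, and no member passed the H1 against HSF test, in all alternatives run. Probes with signals near or under the limit in several cultures, those of ACTL6B, DPF3 and ILMN_2408987, are limited there by their signal over background.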
